A study of Mus musculus with 4 samples.

Results

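Ntmt1 encodes an N-terminal protein methyltransferase, and Rcc1, Set, Cenpa, Cenpb and Ddb2 encode substrates of that enzyme. Ntmt1 was chosen by its measured level, which was lower in the LncMyoD knockdown libraries, and the substrates were added from knowledge of the enzyme. The 6 genes were found by symbol, each on 1 row of a deposited table of 54446 rows. Polyadenylated RNA was measured in 4 samples of satellite cells, which are muscle stem cells, taken from the hindlimb of C57BL/6 mice and cultured in F10 medium with 10% HS. Knockdown cells (2 samples) received siRNA targeting the long non-coding transcript LncMyoD for 48 h. Control cells (2 samples) received control siRNA by title, description and treatment tag, although their treatment protocol carries the knockdown wording. The labels give neither the sequence of the siRNA nor the age or sex of the animals. Whether replicates are separate cultures or animals is not labelled, so p-values measure only how these samples vary, and that variation may be technical.

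Values are FPKM, counts of fragments corrected for transcript length and library total, and each difference is knockdown minus control in log2(FPKM + 1). Of the table's rows, 0 carried the name of the target, so the knockdown itself was not checked here. The 4 columns summed to between 317223 and 322496 FPKM. For a transcript of 1 kb, 1 FPKM stood for 36.7 to 41.1 reads of 150 nt. Of the markers of myogenic cells, Myod1 had 583 and 667 FPKM in knockdown libraries, against 698 and 691 in control libraries, and Myog had 3406 and 2793 in knockdown libraries, against 4196 and 3931 in control libraries. The 6 tested myogenic markers included 3 (50%) with both knockdown libraries below both controls, beside 16.3% of all genes tested. Those above numbered 0, beside 22.1% of all genes tested. By limma 0 of the 6 were called, where 0.0459% of all genes tested were called lower and 0.00917% higher. The groups overlapped for Des, Cdh15 and Itga7. The list summed to 4380 and 3985 FPKM in knockdown libraries, against 5384 and 5103 in control libraries, most of it Myog. Pax7, which defines satellite cells before differentiation, lay at 1.40 FPKM or below in all 4 libraries. With Myog as high as given above, the cultures were by these markers mostly past that stage. Of the leukocyte markers, Ptprc, Adgre1 and Itgam were listed at 0 in every library, whereas Cd68 had 0.271 and 1.07 FPKM in knockdown libraries, against 1.02 and 0.607 in control libraries. Of the endothelial markers, Kdr was listed at 0 in every library, whereas Tek had 2.45 and 1.27 FPKM in knockdown libraries, against 0.801 and 1.78 in control libraries. The groups overlapped for both Cd68 and Tek. The markers of fibro-adipogenic progenitors summed to 3.32 and 2.52 FPKM in knockdown libraries, against 4.34 and 4.79 in control libraries. Col1a1 made up most of that sum and was not called (log2 difference -0.51, limma adjusted p 0.698). The markers of Schwann cells summed to at most 0.864 FPKM in any library. The 5 markers of pericytes and smooth muscle summed to 2672 and 2578 FPKM in knockdown libraries, against 3167 and 3023 in control libraries, almost all of it Acta2, which differentiating myoblasts also express. The other 4 were low and did not move together. Pdgfrb had 0.46 and 0.634 FPKM in knockdown libraries, against 0.15 and 0.184 in control libraries, while Cspg4 had 1.02 and 1.04 in knockdown libraries, against 1.53 and 1.42 in control libraries. Rgs5 was listed at 0 in both knockdown libraries, against 0.0733 and 0.0981 FPKM in control libraries. In bulk RNA, fewer cells of a type and less RNA per cell cannot be told apart, and the part of these marker levels in the results was not tested.

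NTMT1 adds methyl groups to the amino group at the very start of a protein, once the initiator methionine has been removed. It recognises a short consensus in which a small residue or proline is followed by a second proline and then by lysine or arginine. In human cells the methylation of RCC1 strengthens its hold on mitotic chromosomes, that of CENPB its binding to centromeric DNA, and that of DDB2 its recruitment to DNA damaged by ultraviolet light. In a mouse myoblast line the transcription of Ntmt1 is driven by CREB and rises during differentiation.

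The first coding bases of the substrates are shown because they hold the codons of that consensus. Each line gives the first 30 bases of the coding sequence in GENCODE M21 on GRCm38, with codons 2 to 4 in capitals. Rcc1 lies on chromosome 4, Cenpa on chromosome 5, and Set, Cenpb and Ddb2 on chromosome 2.
Rcc1-202: atgCCACCCAAGcgcatagctaagagaagg
Set-202: atgGCCCCGAAGcggcagtctgcgatcctg
Set-201: atgTCTGCGCCGacggccaaagccagtaaa
Cenpa-205: atgGGCCCGCGTcgcaaaccgcagacccca
Cenpb-201: atgGGCCCCAAGcggcggcagctgacgttc
Ddb2-201: atgGCTCCCAAGaaatgcccagaaacccag
Ddb2-202: atgATCTGGAACtttggcatcaaggacaaa
All 5 substrates carried the consensus in their principal transcript. Cenpa ends it with an arginine codon and the other substrates with a lysine codon. The alternative transcripts Set-201 and Ddb2-202 start elsewhere and lack it. The table gives 1 value per gene, so these isoforms could not be measured apart.

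Ntmt1 (chromosome 2, 30807826 to 30823033, plus strand, GRCm38) was less abundant in knockdown than in control cells, and since it was chosen by these values they are given with no test. It had 6.77 and 7.39 FPKM in knockdown libraries, against 28.9 and 30.4 FPKM in control libraries. The groups stood far apart, and replicates within each lay close together. The means were 7.08 ± 0.44 FPKM in knockdown and 29.7 ± 1.01 FPKM in control (SD, n = 2 each), a ratio of 0.239 and a log2 difference of -1.92. Leaving out each library in turn gave -1.98 to -1.87. Ntmt1 ranked 5551 and 5389 by level among all rows in knockdown libraries, and 2095 and 2008 in control libraries.

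If all fragments came from its principal transcript of 1387 bases and 4 exons, the level of Ntmt1 corresponded to 344 and 421 reads of 150 nt in knockdown and to 1571 and 1643 in control. No row of the table shared an exon with Ntmt1, and 0 other genes held a transcript at least 95% identical to it over 200 bases or more. The control level was 4.19 times the knockdown level. Ntmt1 has 9 annotated transcripts of 445 to 1387 bases, a ratio of 3.12. The part of a change between these transcripts in the difference was not tested.

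**Figure D1:**
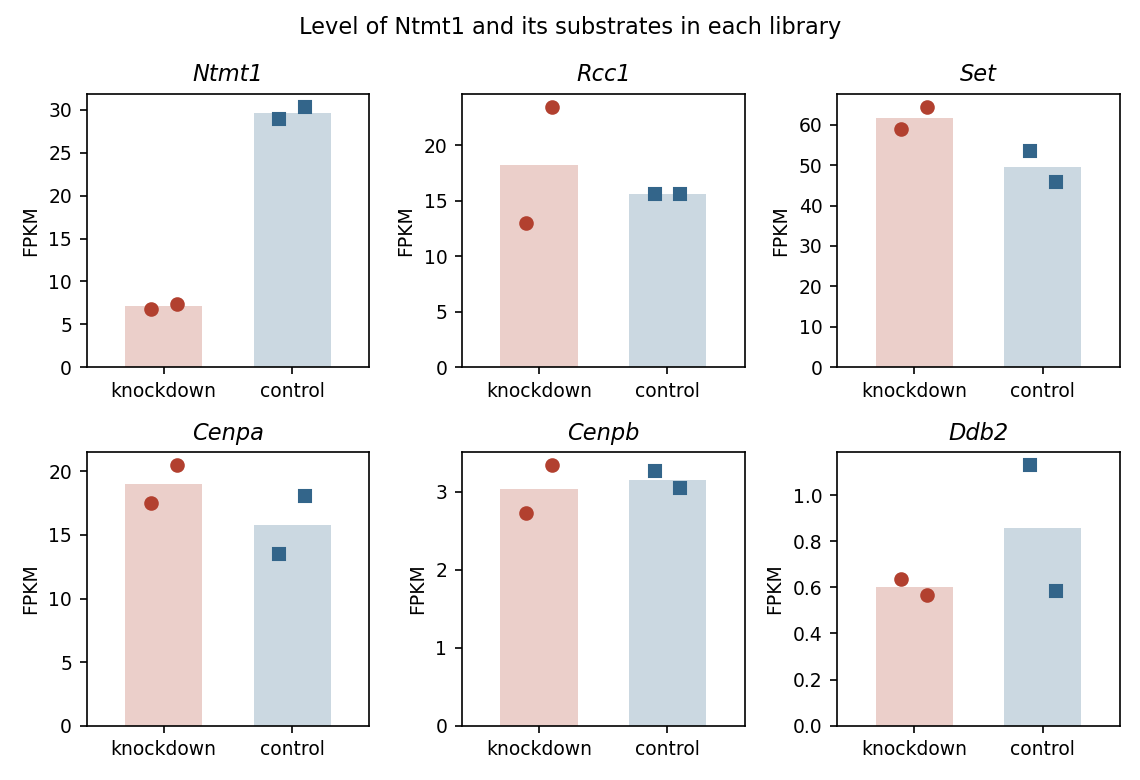
FPKM (vertical axis, each panel from 0 on its own scale) of the 6 genes in knockdown and control libraries; points are libraries and bars are group means (n = 2). The groups lie apart for Ntmt1, at 6.77 and 7.39 in knockdown libraries, against 28.9 and 30.4 in control libraries, and for Set, and they overlap for Rcc1, Cenpa, Cenpb and Ddb2.

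None of the tested substrates had both knockdown libraries below both controls. Of the 5, 4 passed the filter of a mean of 1 FPKM, and by limma with Benjamini-Hochberg adjustment over the 10900 genes tested 0 were lower and 0 higher, where 0.0459% of all genes tested were called lower and 0.00917% higher. At an unadjusted p under 0.05 there was 1, Set, where all genes gave 7.08%. Both knockdown libraries lay above both control libraries for 1 of the 4, Set, and below for 0, where the shares of all genes tested were 22.1% and 16.3%. The level order in knockdown cells was Set, Cenpa, Rcc1, Ntmt1, Cenpb and Ddb2, and in control cells it was Set, Ntmt1, Cenpa, Rcc1, Cenpb and Ddb2. Cenpa and Rcc1, neighbours in both orders, did not differ beyond their spread.

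Rcc1 (chromosome 4, 132331919 to 132353605, minus strand), the chromatin-bound exchange factor that loads Ran with GTP, had 13.0 and 23.5 FPKM in knockdown libraries, against 15.6 and 15.6 FPKM in control libraries. The knockdown libraries lay on either side of the control values. The log2 difference was 0.16 ± 0.27 (SE; 95% interval -0.49 to 0.80; limma adjusted p 0.926, with 0.341 to 0.999 over its alternatives). It was 0.56 without knockdown replicate 1 and -0.25 without knockdown replicate 2, so knockdown replicate 2 set its direction. Rcc1 shares 135 exonic bases, 3.51% of its own, with the snoRNA host gene Snhg3 on the same strand.

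Set (chromosome 2, 30057378 to 30072577, plus strand), a histone chaperone and inhibitor of the phosphatase PP2A, had 58.9 and 64.5 FPKM in knockdown libraries, against 53.5 and 45.7 FPKM in control libraries. It was the most abundant of the 6 genes in every library, with both knockdown values above both control values. The means were 61.7 ± 3.96 FPKM in knockdown and 49.6 ± 5.55 FPKM in control (SD, n = 2 each). The log2 difference of 0.31 ± 0.12 (SE; 95% interval 0.01 to 0.61) had an unadjusted p of 0.043 and did not pass over all genes (limma adjusted p 0.692, with 0.442 to 0.999 over its alternatives). The row Gm9531 holds 775 bases identical to the Set transcript and had 29.5 and 34.3 FPKM in knockdown libraries, against 26.7 and 22.8 FPKM in control libraries. Fragments of Set and Gm9531 cannot be told apart over those bases. With the 6 rows of near-identical sequence added, a choice made after the data were seen, Set had 89.0 and 99.3 FPKM in knockdown libraries, against 81.0 and 69.1 in control libraries, with a log2 difference of 0.33 (limma adjusted p 0.673).

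The centromeric substrates were at overlapping levels in the groups. Cenpa (chromosome 5, 30666777 to 30674830, plus strand), the histone H3 variant that marks centromeres, had 17.5 and 20.5 FPKM in knockdown libraries, against 13.5 and 18.1 FPKM in control libraries. Its log2 difference was 0.26 ± 0.18 (SE; 95% interval -0.18 to 0.70; limma adjusted p 0.794), and it was 0.06 without control replicate 1. Cenpb (chromosome 2, 131175182 to 131180067, minus strand), which binds a box in satellite DNA, had 2.73 and 3.34 FPKM in knockdown libraries, against 3.26 and 3.04 FPKM in control libraries. Its log2 difference was -0.05 ± 0.20 (SE; 95% interval -0.54 to 0.45; limma adjusted p 0.972). Cenpb has 1 exon and 1 transcript of 4886 bases, so its value does not depend on how fragments were split between isoforms. It stood on 489 and 670 reads of 150 nt in knockdown libraries, against 624 and 580 in control libraries. Cenpa is made in dividing cells, and the 7 proliferation markers summed to 235 and 269 FPKM in knockdown libraries, against 263 and 238 in control libraries. Single markers differed in direction: Top2a had 17.1 and 21.7 FPKM in knockdown libraries, against 12.7 and 13.5 in control libraries (log2 difference 0.53; unadjusted p 0.017; limma adjusted p 0.627), and Cdk1 had 27.9 and 31.2 in knockdown libraries, against 37 and 32.5 in control libraries (log2 difference -0.22; limma adjusted p 0.750). Their part in the level of Cenpa was not tested.

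Ddb2 (chromosome 2, 91211572 to 91236982, minus strand), the subunit that recognises ultraviolet damage, was the lowest of the 6 and lay under the filter, so it was not tested. It had 0.637 and 0.566 FPKM in knockdown libraries, against 1.13 and 0.583 FPKM in control libraries. Control replicate 1 alone stood higher, and the other libraries were close to each other. On its principal transcript these levels correspond to 36 and 36 reads in knockdown libraries, against 69 and 35 in control libraries. Of its exonic bases, 23.8% overlap Acp2 on the opposite strand, which had 13.1 and 9.04 FPKM in knockdown libraries, against 10.6 and 9.99 in control libraries. No strand setting is known from the labels, so reads over that overlap cannot be assigned.

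**Figure D2:**
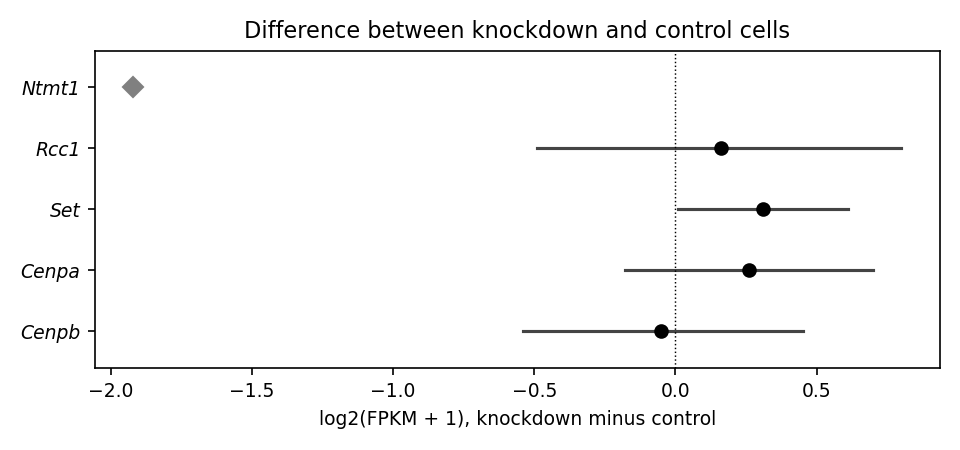
Difference in log2(FPKM + 1), knockdown minus control, for the 5 genes that passed the filter. Circles with bars are substrates with limma 95% intervals, and the grey diamond is Ntmt1, shown without an interval because it was chosen for this value; Ntmt1 lies at -1.92 and the substrates between -0.05 and 0.31.

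The amount of Ntmt1 transcript per substrate transcript, both per kilobase, was lower in knockdown for each of the 5. There were 0.521 and 0.314 Ntmt1 per Rcc1 in knockdown libraries, against 1.86 and 1.94 in control libraries. For Set the ratio was 0.115 and 0.115 in knockdown libraries, against 0.540 and 0.664 in control libraries. For Cenpa it was 0.387 and 0.361 in knockdown libraries, against 2.14 and 1.68 in control libraries. These ratios carry the values of Ntmt1 by which it was chosen and are a description of transcript, not of protein.

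Genes next to Ntmt1 were examined because position had not been used to choose it. Within 200 kb of its start lay 14 other rows, of which 6 passed the filter. By limma 0 of the 6 were called, where 0.0459% of all genes tested were called lower and 0.00917% higher. At an unadjusted p under 0.05 there was 1, Tor1b, where all genes gave 7.08%. Asb6, a substrate adaptor of ubiquitin ligases, runs towards Ntmt1 and ends 64 bases past its end. It had 3.62 and 4.93 FPKM in knockdown libraries, against 3.99 and 4.36 in control libraries, a log2 difference of 0.02 (limma adjusted p 0.991). Prrx2, a homeobox factor of limb mesenchyme, had 2.17 and 1.66 FPKM in knockdown libraries, against 1.44 and 2.79 in control libraries, a log2 difference of -0.07 (limma adjusted p 0.971). The sign of both small differences turned when 1 library was left out, and that of Asb6 also with quantile normalization or scaling by median ratio. Tor1b, a torsin of the endoplasmic reticulum, was the 1 gene of the 6 (16.7%, beside 16.3% of all genes tested) with both knockdown libraries below both controls, with 1.78 and 1.96 FPKM in knockdown libraries, against 3.44 and 2.90 in control libraries (log2 difference -0.54; unadjusted p 0.04; limma adjusted p 0.692). Usp20, a deubiquitinase, was the 1 gene above, with 4.28 and 3.58 FPKM in knockdown libraries, against 3.51 and 3.02 in control libraries (log2 difference 0.21; limma adjusted p 0.858). On the other side the nearest tested genes were Ptpa and Crat, whose starts lie at -392 and -407 kb from that of Ntmt1. Ptpa, a PP2A activator, had 9.80 and 20.2 FPKM in knockdown libraries, against 10.4 and 10.6 in control libraries. Crat, carnitine acetyltransferase, had 3.71 and 4.08 in knockdown libraries, against 3.85 and 5.02 in control libraries.

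**Figure D3:**
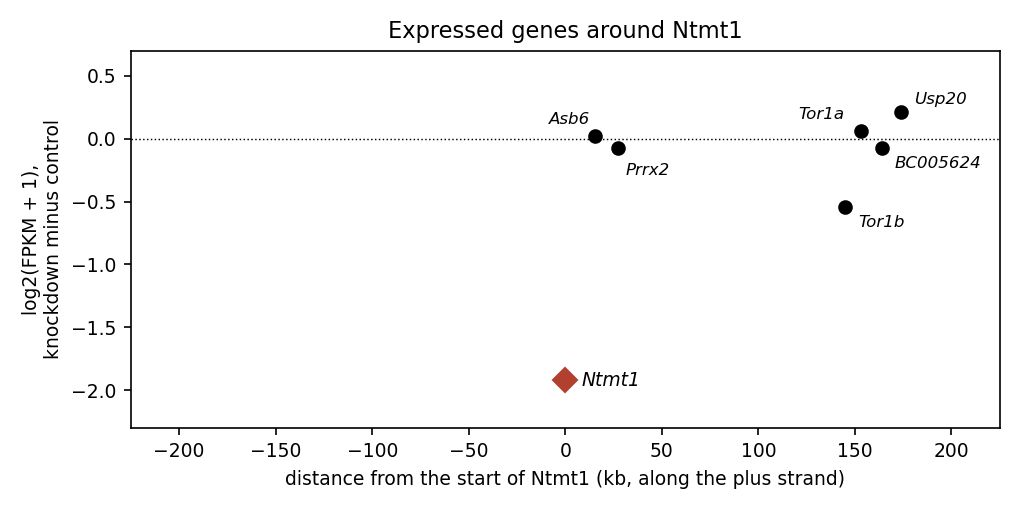
Difference in log2(FPKM + 1), knockdown minus control, against the distance in kb from the start of Ntmt1, for Ntmt1 (diamond) and the 6 tested genes within 200 kb (circles). Ntmt1 lies at -1.92, Tor1b at -0.54 and the others between -0.07 and 0.21.

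The tested genes whose centred log2 values over the 4 libraries lay nearest to those of Ntmt1 were Gm26651, Vkorc1, Gm30873, Gm16534 and Borcs6, at Euclidean distances of 0.647 to 0.807. Vkorc1, the vitamin K epoxide reductase, had 11.5 and 14.9 FPKM in knockdown libraries, against 30.9 and 32.3 in control libraries. Borcs6, a subunit of the BORC complex of lysosomes, had 1.20 and 0.733 FPKM in knockdown libraries, against 4.39 and 3.08 in control libraries. The non-coding or predicted genes Gm26651, Gm30873 and Gm16534 had log2 differences of -1.36, -1.26 and -1.53. All 5 were picked for this likeness over 4 samples, so their values are a description. Gm16534, low in every library, had -2.09 with a pseudocount of 0.1 and -1.96 without knockdown replicate 1, where Ntmt1 had -2.05 and -1.87.

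Of the other N-terminal methyltransferases, 1 was measured above the filter. Mettl11b, which encodes the paralogous enzyme NTMT2, was listed at 0 in all 4 libraries. Mettl13, which methylates the start of the elongation factor eEF1A, had 2.11 and 5.26 FPKM in knockdown libraries, against 3.49 and 3.25 in control libraries, with a log2 difference of 0.01 (limma adjusted p 0.997). The knockdown libraries lay on either side of the controls.

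Among 8 further reported substrates, all tested, 0 passed by limma over all genes. Of all genes tested, 0.0459% were called lower and 0.00917% higher. At an unadjusted p under 0.05 there was 1, where all genes gave 7.08%. The median log2 difference of the 8 was -0.03, beside 0.03 for all genes tested. Without overlap, 1 gene lay below (12.5%) and 2 above (25%), near the 16.3% and 22.1% of all genes tested. Coding starts of those named here, from GENCODE M21 on GRCm38 with codons 2 to 4 in capitals, are shown to compare them with the starts given above. Rps25 lies on chromosome 9, Rb1 on chromosome 14, Myl9 on chromosome 2 and Rpl23a on chromosome 11.
Rps25-201: atgCCTCCCAAAgacgacaagaagaagaaa
Rb1-201: atgCCGCCCAAAgccccgcgcagagccgcg
Myl9-201: atgTCGAGCAAGagagccaaggccaagacc
Rpl23a-201: atgGCGCCGAAAgcgaagaaggaagctcct
Myl9 has a serine codon in place of the central proline codon.

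Rps25, a ribosomal protein whose yeast counterpart is methylated by the yeast homologue of NTMT1, had 26.6 and 30.6 FPKM in knockdown libraries, against 49.6 and 49.0 in control libraries. The groups did not overlap, and its log2 difference of -0.77 ± 0.12 (SE) did not pass over all genes (limma adjusted p 0.265, with 0.184 to 0.841 over its alternatives). It shares at least 200 bases of near-identical sequence with 7 rows, among them the pseudogene Rps25-ps1 and Trappc4. The 7 rows together had 43.2 and 50.8 FPKM in knockdown libraries, against 46.1 and 46.6 in control libraries. Of this, Trappc4, a separate gene, had 24.6 and 28.1 in knockdown libraries, against 22.3 and 24.6 in control libraries. With the 7 rows added, a choice made after the data were seen, Rps25 had 69.8 and 81.4 FPKM in knockdown libraries, against 95.7 and 95.6 in control libraries. The log2 difference was then -0.34 (limma adjusted p 0.640). That sum also carries the whole level of Trappc4 and Ccdc84, which are separate genes, so it is not a value of Rps25 alone. The value of Rps25 is uncertain where fragments could be split between these rows, and the part of such a split was not tested.

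Rb1, the retinoblastoma protein that restrains the cell cycle, had 7.70 and 6.89 FPKM in knockdown libraries, against 4.83 and 6.41 in control libraries (log2 difference 0.33, limma adjusted p 0.755). Myl9, a regulatory light chain of non-muscle and smooth muscle myosin, had 283 and 289 FPKM in knockdown libraries, against 270 and 265 in control libraries. Rpl23a, a ribosomal protein with 20 rows of near-identical sequence, had 160 and 177 FPKM in knockdown libraries, against 180 and 169 in control libraries. The groups did not overlap for Rb1 and Myl9, with knockdown above control, and they overlapped for Rpl23a.

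The consensus was then searched at the coding start of all genes. After the start codon (ATG) came a codon of alanine (GCN), glycine (GGN), proline (CCN) or serine (TCN or AGT or AGC). A proline codon (CCN) followed, and then a lysine codon (AAA or AAG) or an arginine codon (CGN or AGA or AGG), read in frame on the coding strand only. Of 21573 genes with a complete principal coding start 91 held it, a share of 0.422%, and 53 of these were tested. By limma 0 passed in either direction over all genes. At an unadjusted p under 0.05 there were 1 lower and 2 higher, where all genes gave 7.08% over both directions. Both knockdown libraries lay below both controls for 20.8% of the 53 and above for 22.6%, beside 16.3% and 22.1% of all genes tested. The median log2 difference was 0.01, with 26 negative and 27 positive, beside 0.03 for all genes tested. The sign of that small median turned with scaling by median ratio (-0.02). Of the 172 tested genes with the same start but another residue after the central proline, 1 was called higher and 0 lower. Of all 10900 genes tested the shares were 0.00917% and 0.0459%, and that gene was the only 1 called higher. Without overlap, 11% of the 172 lay below and 23.3% above, beside 16.3% and 22.1% of all genes tested. The median log2 difference of the 172 was 0.06.

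The genes with the lowest p in that list were Rps25, described above, and Emilin1, a secreted glycoprotein of elastic fibres. Emilin1 had 17.0 and 25.2 FPKM in knockdown libraries, against 13.3 and 12.6 in control libraries, without overlap (log2 difference 0.64, limma adjusted p 0.636). The most abundant were Mylpf, the regulatory light chain of fast skeletal muscle myosin, and Rps14, a ribosomal protein. Mylpf (chromosome 7) is shown with Emilin1 (chromosome 5) because a muscle protein carries the same start.
Mylpf-201: atgGCACCCAAGaaggccaagagaagggca
Emilin1-201: atgGCCCCCAGAgccctctggagctgctat
Mylpf had 408 and 331 FPKM in knockdown libraries, against 394 and 386 in control libraries, with overlap. Rps14 had 246 and 234 FPKM in knockdown libraries, against 264 and 270 in control libraries, without overlap, and 2 other rows hold near-identical sequence.

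**Figure D4:**
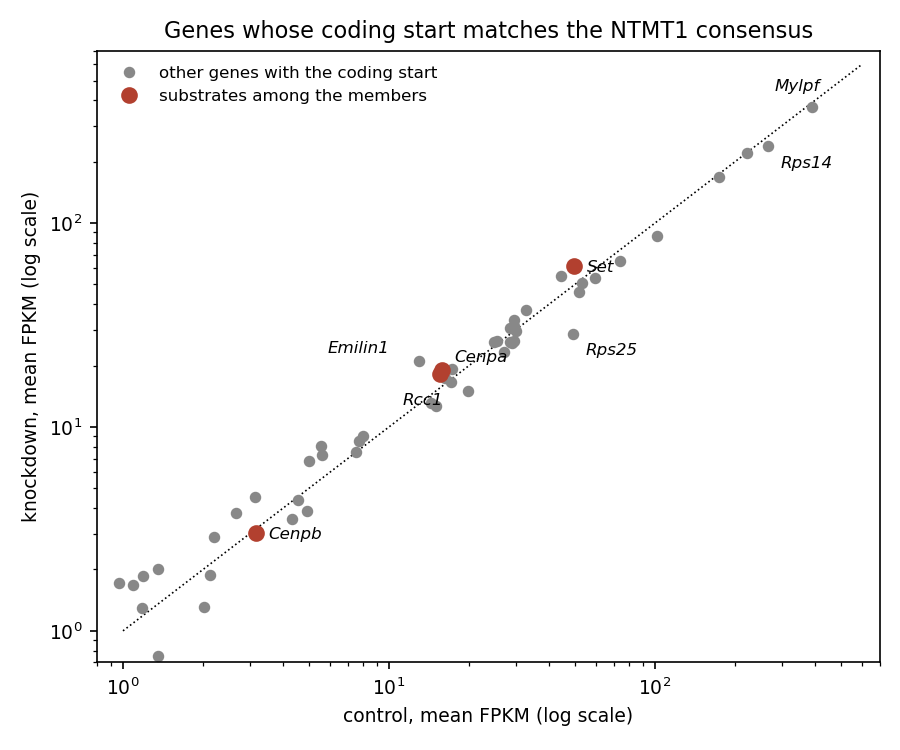
Mean FPKM in knockdown cells (vertical, log scale) against mean FPKM in control cells (horizontal, log scale) for the 53 tested genes whose coding start matches the consensus; the dotted line marks equal levels and the 4 tested substrates are in colour. The genes scatter on both sides of the line, with Rps25 below it, at 26.6 and 30.6 FPKM in knockdown libraries, against 49.6 and 49.0 in control libraries.

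Enzymes that trim or modify protein starts showed 0 calls by limma, where 0.0459% of all genes tested were called lower and 0.00917% higher. Methionine aminopeptidases, N-myristoyltransferases and the deformylase Pdf had 6 tested members, with 0 at an unadjusted p under 0.05, where all genes gave 7.08%. Without overlap, 1 lay above and 1 below (16.7% each, beside 22.1% and 16.3% of all genes tested). The median log2 difference of the 6 was 0.01. Metap2, which removes the initiator methionine, had 27.5 and 26.9 FPKM in knockdown libraries, against 29.5 and 32.4 in control libraries (log2 difference -0.18, limma adjusted p 0.779). Nmt1, which attaches myristate, had 47.4 and 36.8 FPKM in knockdown libraries, against 38.8 and 36.6 in control libraries (log2 difference 0.14, limma adjusted p 0.866), and the sign turned without knockdown replicate 1 (-0.03). Pdf, a mitochondrial deformylase, had 28.3 and 35.1 FPKM in knockdown libraries, against 34.7 and 31.5 in control libraries.

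N-terminal acetyltransferase subunits had 10 tested members, with 0 at an unadjusted p under 0.05, where all genes gave 7.08%. Of the 10, 3 (30%) lay above and 0 below without overlap, beside 22.1% and 16.3% of all genes tested. The median log2 difference of the 10 was 0.10, beside 0.03 for all genes tested. Naa40, which acetylates histones H4 and H2A, had 11.2 and 11.9 FPKM in knockdown libraries, against 7.41 and 9.46 in control libraries (log2 difference 0.42, limma adjusted p 0.698). Naa60, which acts on membrane proteins at the Golgi, had 5.25 and 4.70 FPKM in knockdown libraries, against 3.03 and 3.96 in control libraries (log2 difference 0.42, limma adjusted p 0.717). The catalytic subunits Naa50 and Naa20 were the most abundant. Naa50 had 153 and 126 FPKM in knockdown libraries, against 128 and 125 in control libraries, and Naa20 had 31.1 and 35.2 in knockdown libraries, against 28.0 and 29.9 in control libraries.

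Genes that supply and recycle S-adenosylmethionine, the methyl donor, had 9 tested members. By limma 0 were called, where 0.0459% of all genes tested were called lower and 0.00917% higher. At an unadjusted p under 0.05 there were 0, where all genes gave 7.08%. The median log2 difference of the 9 was 0.11. Without overlap, 3 (33.3%) lay above and 1 (11.1%) below, beside 22.1% and 16.3% of all genes tested. Mat2a, the synthetase, had 86.8 and 96.9 FPKM in knockdown libraries, against 80.3 and 96.7 in control libraries. Mtap, of the methionine salvage pathway, had 41.9 and 44.5 FPKM in knockdown libraries, against 38.3 and 34.3 in control libraries (log2 difference 0.25, limma adjusted p 0.708). Ahcyl1, a relative of the hydrolase that clears S-adenosylhomocysteine, had 9.99 and 7.98 in knockdown libraries, against 6.75 and 8.33 in control libraries (log2 difference 0.22, limma adjusted p 0.833).

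The partners of each substrate also gave 0 calls by limma, where 0.0459% of all genes tested were called lower and 0.00917% higher. For the centromere, 19 of 19 members were tested, with 1 at an unadjusted p under 0.05, where all genes gave 7.08%. Without overlap, 2 (10.5%) lay above and 1 (5.26%) below, both shares under the 22.1% and 16.3% of all genes tested, and the median log2 difference was 0.06. Cenpx, a histone-fold protein, had 17.2 and 21.8 FPKM in knockdown libraries, against 12 and 10.1 in control libraries (log2 difference 0.76 ± 0.17 SE, limma adjusted p 0.523). Hjurp, the chaperone that deposits Cenpa, had 13.0 and 16.3 FPKM in knockdown libraries, against 9.90 and 12.4 in control libraries (log2 difference 0.36, limma adjusted p 0.717). The most abundant were Cenpt, with 28.1 and 23.2 FPKM in knockdown libraries, against 24.5 and 24.5 in control libraries, and Cenpq, with 17.0 and 21.3 in knockdown libraries, against 21.0 and 18.5 in control libraries, both proteins of the inner kinetochore.

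The Ran cycle, which Rcc1 drives, had 15 tested members, with 2 at an unadjusted p under 0.05. That share of all genes tested was 7.08%. Of the 15, 7 (46.7%) lay above and 2 (13.3%) below without overlap, beside 22.1% and 16.3% of all genes tested. The median log2 difference was 0.15, or 0.08 without knockdown replicate 1, beside 0.03 for all genes tested. Xpo1, the exportin that carries proteins out of the nucleus, had 24.0 and 21.1 FPKM in knockdown libraries, against 14.2 and 15.6 in control libraries (log2 difference 0.57 ± 0.14 SE, limma adjusted p 0.566). Rcc2, a relative of Rcc1 at the mitotic centromere, had 18.9 and 17.4 FPKM in knockdown libraries, against 14.5 and 13.1 in control libraries (log2 difference 0.37, limma adjusted p 0.683). Ran itself had 416 and 458 FPKM in knockdown libraries, against 461 and 438 in control libraries. Its binding protein Ranbp1 had 315 and 352 in knockdown libraries, against 303 and 379 in control libraries.

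The Set complex and PP2A list had 11 tested members, with 1 at an unadjusted p under 0.05, where all genes gave 7.08%. The median log2 difference of the 11 was 0.05. Without overlap, 2 (18.2%) lay above and 2 (18.2%) below, near the 22.1% and 16.3% of all genes tested. Trex1, an exonuclease, had 5.45 and 3.87 FPKM in knockdown libraries, against 1.66 and 2.82 in control libraries (log2 difference 0.82, limma adjusted p 0.645). Anp32e, a chaperone of the histone variant H2A.Z, had 58.4 and 79.0 FPKM in knockdown libraries, against 84.3 and 90.3 in control libraries (log2 difference -0.36, limma adjusted p 0.698). Anp32b, a further histone chaperone, had 165 and 185 FPKM in knockdown libraries, against 173 and 161 in control libraries, and the nucleoside diphosphate kinase Nme1 had 150 and 146 in knockdown libraries, against 144 and 149 in control libraries.

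Partners of Ddb2 in nucleotide excision repair had 15 tested members, with 1 at an unadjusted p under 0.05, where all genes gave 7.08%, and a median of -0.0012. Without overlap, 5 (33.3%) lay above and 3 (20%) below, beside 22.1% and 16.3% of all genes tested. Xpa, which verifies damage, had 7.96 and 7.69 FPKM in knockdown libraries, against 4.77 and 5.37 in control libraries (log2 difference 0.54 ± 0.17 SE, limma adjusted p 0.631). Cul4b, a scaffold of the Ddb2 ligase, had 13.5 and 12.4 FPKM in knockdown libraries, against 10.5 and 9.64 in control libraries (log2 difference 0.33, limma adjusted p 0.698). Ddb1, which joins Ddb2 to that scaffold, had 156 and 140 FPKM in knockdown libraries, against 127 and 142 in control libraries, far above Ddb2 on the same per-kilobase scale. Rbx1, the RING subunit, had 55.8 and 58.4 FPKM in knockdown libraries, against 62.9 and 56.8 in control libraries.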

How the data were processed

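The authors deposited a table with 1 FPKM value for each gene in each sample, used without rescaling; that unit was inferred from the numbers themselves. The submitters' processing notes name mm10 and the tools StringTie 1.3.3, SAMtools 1.3, HISAT2 2.1.0, Trimmomatic 0.36 and bcl2fastq 2.19, with no roles. SMART-Seq v4 cDNA was sequenced as paired reads of 150 nt, per the labels' protocols. Annotation release and strandedness: not given in the sources used here.

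The 10900 genes whose mean over all samples reached 1 FPKM were tested on log2(FPKM + 1) by limma 3.58.1 (R 4.3.3, mean-variance trend, two-sided). Benjamini-Hochberg adjustment ran over all of them, with a threshold of 0.05. Members and lists were chosen with earlier results of these data known. Named genes were, in each list, up to 4 genes passing the threshold, or failing that the 2 of lowest p and the 2 of highest mean; the 2 nearest tested genes on each side of Ntmt1; and the 5 most like it. Tor1b, Usp20, Mettl11b, Gm9531, Acp2 and the marker genes were named outside that rule, after their values were seen. Coordinates, lengths and coding starts came from GENCODE M21 on GRCm38, which held 54409 identifiers and lacked 37. The consensus list had been planned on RefSeq proteins, not used here, and was read from coding sequences of APPRIS principal transcripts instead. Depth was estimated from the step of FPKM times length in genes of 1 exon and 1 transcript, and read numbers cover counting error only. Near-identical rows were found with blastn. The fit was tested on simulated data. Alternatives were another pseudocount, filter or scaling, no trend, a replicate block and leaving out each library.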

Additional observations from a re-analysis of the deposited data

How the results depend on the processing

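The log2 difference of Ntmt1 lay between -2.05 and -1.87 over 11 alternatives; -2.05 came with a pseudocount of 0.1. None of the 4 tested substrates passed under any alternative. Leaving out 1 library at a time moved Rcc1 between -0.25 and 0.56, Cenpb between -0.16 and 0.06, Nmt1 between -0.03 and 0.32, Asb6 between -0.16 and 0.20 and Prrx2 between -0.39 and 0.25. Asb6 had -0.04 with quantile normalization and -0.01 with scaling by median ratio. Summed with rows that share exons, Cenpb had 0.02 and Ddb2 0.04; no row shares exons with Ntmt1. The genes called lower, 5 with the settings used, were 0 without a filter, 3 without the trend and 2 to 11 with 1 library left out (11 without knockdown replicate 1, 3 without control replicate 1, 2 without control replicate 2). Those called higher, 1 with the settings used, were 0 without a filter, 2 with a pseudocount of 0.1, 2 with scaling by median ratio and 2 to 4 with 1 library left out (4 without knockdown replicate 1 or control replicate 2, 2 without either of the others). The lone sample is then assumed to vary like the other group. A filter at 5 FPKM left no value for Cenpb. The median of the consensus list was -0.03 without a filter, -0.02 with scaling by median ratio, -0.03 with a lysine codon only and -0.03 to 0.04 with 1 library left out; the cause of these changes was not tested. With a replicate block, 2 genes were called lower and 1 higher. Whether same-numbered samples share more than a number is not labelled (correlation of their deviations over all genes tested -0.0209). With 2 samples in each group, precision is limited.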
